A study of Homo sapiens with 5 samples.

Results

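Hedgehog reception and its transcription factors were represented by 9 genes: the receptors PTCH1 and SMO, the co-receptors BOC and CDON, the decoy receptor HHIP, the inhibitor SUFU and the factors GLI1, GLI2 and GLI3. They were taken by exact gene name from count tables of 43714 gene rows, and all 9 passed the low-count filter that left 15859 genes for testing. The libraries came from Rh41, an established human line of fusion-positive alveolar rhabdomyosarcoma, a cancer whose cells resemble muscle precursors. One group received an siRNA against H3F3A, which encodes the histone variant H3.3 (3 libraries, replicates 1, 2 and 3), and the other a scrambled siRNA (2 libraries, replicates 1 and 3). Both were transfected with Lipofectamine RNAiMAX and collected after 48 hours. The study's title concerns H3.3 in metastasis of this tumour. All values come from 1 cell line, and the sequence of the siRNA is not given in the sources used here. Whether replicates came from different cultures is not labelled, and each p-value therefore covers only the differences seen among these 5 libraries, which can be technical.

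In Hedgehog signalling, a secreted ligand binds PTCH1 with the help of the co-receptors CDON, BOC and GAS1. PTCH1 otherwise holds the membrane protein SMO inactive. Active SMO acts through the primary cilium to release GLI proteins from SUFU, whereupon GLI2 and GLI3 act as activators instead of being cut into repressors. PTCH1, GLI1 and HHIP are themselves GLI targets in many tissues, so their transcripts are widely read as a measure of pathway output, and PTCH1 and HHIP in turn limit the signal. In the embryo the pathway contributes to the early programme of skeletal muscle, and in mice loss of one Ptch1 copy can lead to rhabdomyosarcoma.

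The assigned counts ran from 28493573 to 30705963 after H3F3A siRNA and from 29776931 to 30353965 after scrambled siRNA. The scrambled libraries differed from each other with a chi-square statistic per degree of freedom of 16.9 over their raw counts. Scrambled replicate 3 lay nearer than that to each H3F3A siRNA library (7.24 to 15.9), and scrambled replicate 1 farther from each (28.4 to 31.6). Values without either scrambled library are therefore given where they change a call. H3F3A, listed as H3-3A, stood at 9.38, 10.5 and 8.54 CPM, counts scaled to a common library size, in the H3F3A siRNA libraries, against 294 and 269 CPM in the scrambled libraries, so 3.36% of the level remained. H3-3B, the other gene for H3.3, stood at 819 ± 28.0 CPM after H3F3A siRNA (SD, n = 3) and 821 ± 25.6 CPM after scrambled siRNA (SD, n = 2). Of 10 markers of alveolar rhabdomyosarcoma, 9 averaged at least 1 CPM. The exception was CDH3, at 0.101 to 0.259 CPM after H3F3A siRNA and 0.202 to 0.309 CPM after scrambled siRNA. The summed level of these 10 markers was 3826 to 3903 CPM after H3F3A siRNA and 4365 to 5251 CPM after scrambled siRNA, and its part in the results below was not tested. The markers went both ways: 6 of 10 averaged lower after H3F3A siRNA and 4 higher. The 3 that make up most of the sum were lower, with FGFR4 at 1390 to 1428 CPM after H3F3A siRNA and 1783 to 2184 CPM after scrambled siRNA, and MYOD1 and DES likewise without overlap. TFAP2B was higher without overlap, at 78.4 to 81.5 CPM after H3F3A siRNA and 56.4 to 57.1 CPM after scrambled siRNA, and so was FOXO1, at 95.8 to 107 CPM after H3F3A siRNA and 83.5 to 90.5 CPM after scrambled siRNA. Among all genes tested, the groups did not overlap in 33.1%, so lack of overlap alone is common here. Summed markers of immune cells reached 0.517 to 1.07 CPM after H3F3A siRNA and 0.573 to 0.96 CPM after scrambled siRNA. Summed endothelial markers reached 2.10 to 2.52 CPM after H3F3A siRNA and 2.43 to 2.93 CPM after scrambled siRNA, and epithelial ones reached 4.38 to 4.69 CPM after H3F3A siRNA and 4.82 to 5.35 CPM after scrambled siRNA. The fibroblast list summed to 35.3 to 40.5 CPM after H3F3A siRNA and to 40.1 to 48.7 CPM after scrambled siRNA. Most of it came from COL1A1 and PDGFRA, while LUM, DCN and THY1 averaged below 1 CPM. As in any bulk library, fewer cells expressing a gene and less RNA per cell cannot be told apart.

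PTCH1 is shown here by sequence because it carries the best known GLI-responsive promoter, and BOC because it was the only member called. The windows are RefSeq promoters on GRCh38.p14, each running from 250 bases before an annotated start to 50 bases after it, written 5′ to 3′ along the gene. Such windows were found for 7 of the 9 members, 15 in all, 5 of them for PTCH1 and 2 for BOC. They were searched on both strands for the GLI-binding consensus GACCACCCA, whose reverse complement is TGGGTGGTC. The consensus was present in 1 window, a PTCH1 promoter, where it lay 172 to 164 bases before the start on the opposite strand and is in capitals below. Of all 35116 windows in the table, 83 held it, or 0.236%. A match describes letters only and shows no binding in these cells.
PTCH1 promoter, chr9:95509217-95509516, minus strand: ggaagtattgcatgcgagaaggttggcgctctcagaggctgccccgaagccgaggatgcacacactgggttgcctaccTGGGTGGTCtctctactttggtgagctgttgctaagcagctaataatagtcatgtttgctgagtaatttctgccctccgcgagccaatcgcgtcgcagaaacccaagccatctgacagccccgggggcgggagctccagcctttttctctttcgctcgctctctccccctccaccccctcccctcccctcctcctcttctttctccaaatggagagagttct
BOC promoter, chr3:113211307-113211606, plus strand: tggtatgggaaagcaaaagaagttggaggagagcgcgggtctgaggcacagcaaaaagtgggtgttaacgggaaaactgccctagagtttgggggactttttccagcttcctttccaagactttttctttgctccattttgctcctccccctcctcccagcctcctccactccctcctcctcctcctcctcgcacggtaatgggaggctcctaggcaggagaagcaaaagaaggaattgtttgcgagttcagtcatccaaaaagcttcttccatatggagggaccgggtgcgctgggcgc

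All 9 genes were expressed. Ordered by CPM per kilobase of exon, with exon lengths from GENCODE release 29, SMO had the highest level, from 25.9 to 37.0 over the 5 libraries. CDON came next at 9.37 to 10.7, followed by SUFU at 8.26 to 8.63, GLI2 at 7.21 to 8.97 and GLI1 at 6.11 to 7.57. GLI3 followed at 4.10 to 5.43, PTCH1 at 2.61 to 3.50, HHIP at 1.99 to 2.29 and BOC at 1.72 to 2.42. The mean level of SMO was 15.7 times that of BOC on this scale. The ranges of SUFU and GLI2 overlapped, as did those of HHIP and BOC and of GLI2 and GLI1. Within libraries SUFU lay above GLI2 in 4 of 5, so that pair had no steady order, while GLI2 lay above GLI1 in 5 of 5. HHIP lay above BOC in 3 of 5, namely in every H3F3A siRNA library and in neither scrambled one. The annotation the submitters used may give other exon lengths, so the order holds only for these lengths.

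**Figure D1:**
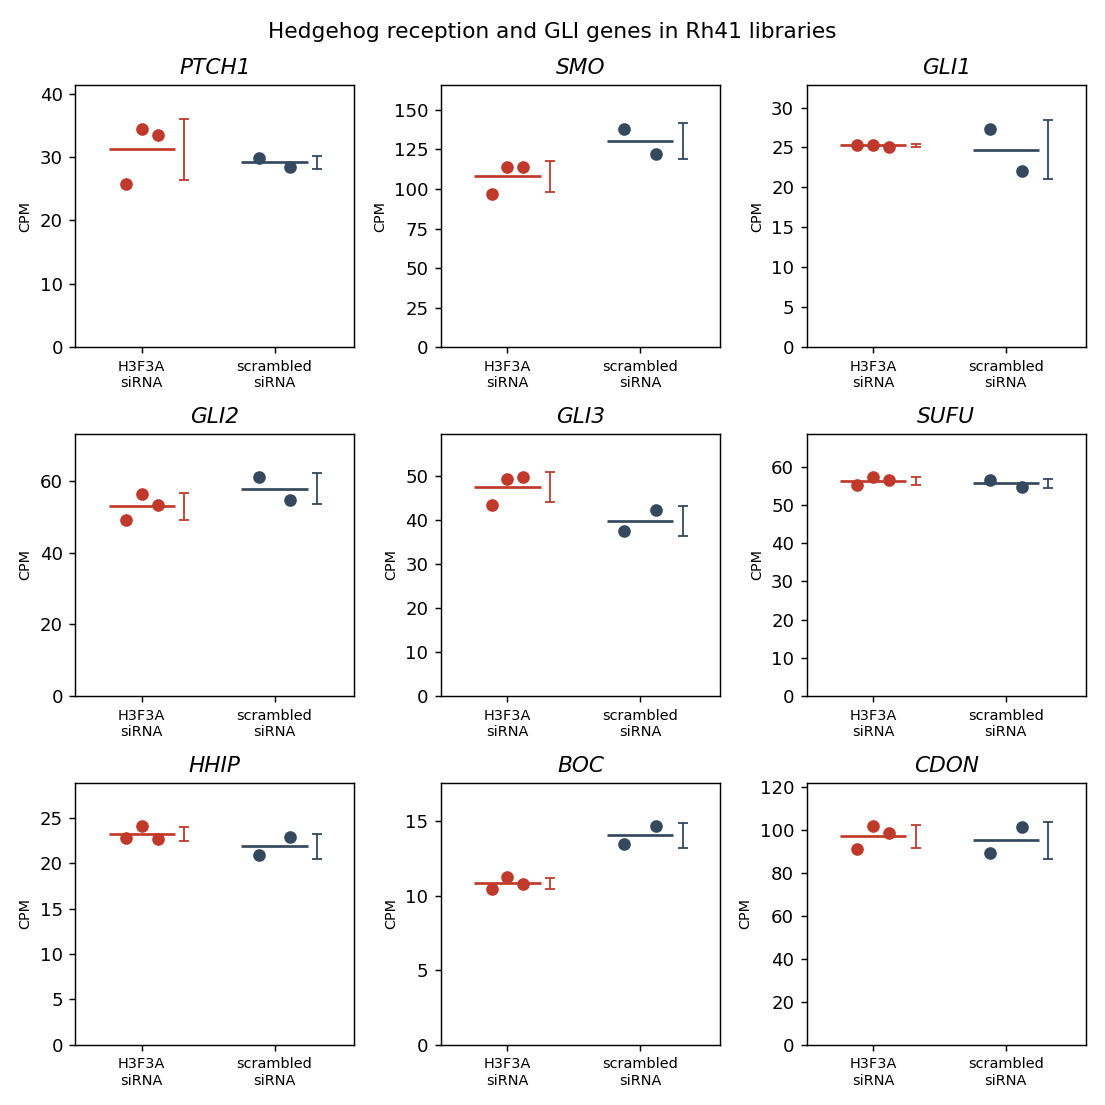
CPM of each of the 9 genes (vertical axes, from 0) in the 3 H3F3A siRNA libraries and the 2 scrambled siRNA libraries. Points are libraries, horizontal lines are group means and bars to the right are 1 SD. The groups of BOC, SMO and GLI3 do not overlap, and those of the other 6 genes do.

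Of the 9 members, 1 was called by edgeR at an adjusted p under 0.05 after H3F3A siRNA, BOC, which was lower. Among all genes tested 3.2% were called, 2.69% lower and 0.504% higher. By upper-quartile scaling the split over all genes was 323 lower and 116 higher, against 427 lower and 80 higher with the scaling used here, and BOC was then not called. The groups did not overlap in 3 members, or 33.3%, and in 33.1% of all genes tested, so that share matches the background. The members' log2 fold changes ran from -0.38 to 0.25 with a median of 0.03, and the median of all genes tested was 0.01. Without regard to sign, the median size was 0.10 for the members and 0.13 for all genes tested. An unadjusted edgeR p under 0.05 was found for 3 members, or 33.3%, against 16.8% of all genes tested.

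**Figure D2:**
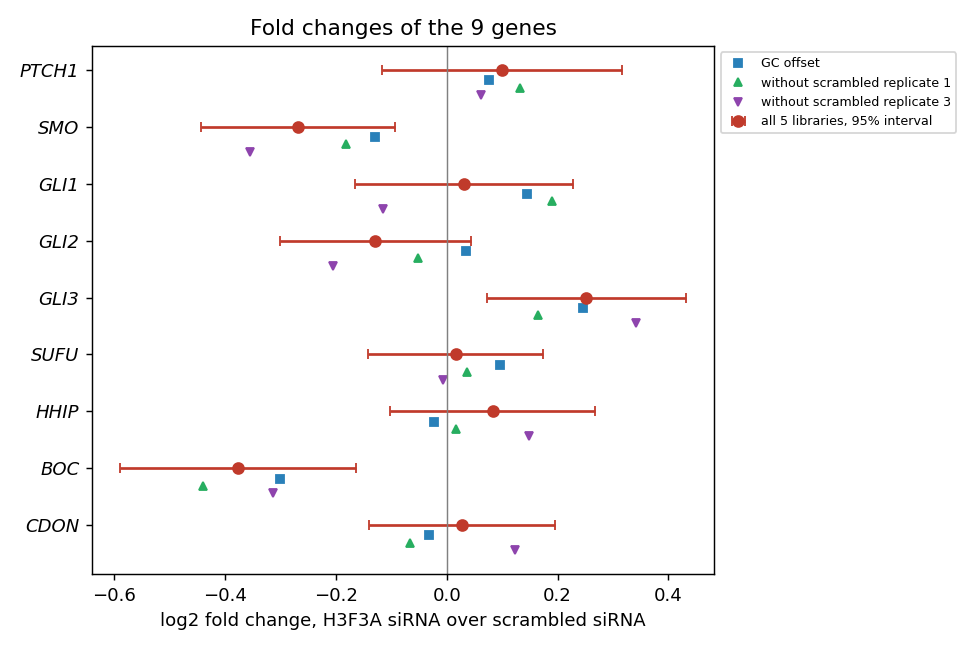
Log2 fold changes of the 9 genes, H3F3A siRNA over scrambled siRNA (horizontal axis). Circles with bars are the edgeR values over all 5 libraries with 95% intervals, and small symbols are the values with a GC offset or without a scrambled library. BOC, SMO, GLI3 and PTCH1 kept their side of 0 under these settings, while GLI1 lay at -0.12 without scrambled replicate 3 and at 0.19 without scrambled replicate 1.

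The pathway readouts PTCH1, GLI1 and HHIP passed no test. PTCH1, the ligand receptor, had 25.7, 34.5 and 33.4 CPM in the H3F3A siRNA libraries, against 29.9 and 28.4 CPM in the scrambled libraries. H3F3A siRNA replicate 1 was the lowest of the 5 and the other H3F3A siRNA libraries the highest, so the groups overlapped. The log2 fold change of PTCH1 was 0.10 (SE 0.10, 95% interval -0.12 to 0.32, edgeR adjusted p = 0.683). It was 0.22 without H3F3A siRNA replicate 1, 0.02 without replicate 2 and 0.05 without replicate 3, and uncalled in each case. Without scrambled replicates 1 and 3 it was 0.13 and 0.06. In PTCH1, 11.0% to 13.9% of the reads counted in the stranded columns were missing from the unstranded counts used here, as reads ambiguous with a gene on the other strand. With the stranded columns added up instead, a setting chosen after the data were seen, its log2 fold change was 0.10. That sum can include reads of the gene on the other strand.

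GLI1, the transcription factor whose own gene responds to the pathway, had 25.4, 25.4 and 25.1 CPM after H3F3A siRNA, against 27.4 and 22.1 CPM after scrambled siRNA. The 3 H3F3A siRNA libraries lay close together and between the scrambled ones. Its log2 fold change was 0.03 (SE 0.09, 95% interval -0.16 to 0.23, edgeR adjusted p = 0.908). With a GC offset, described below, it was 0.14 (adjusted p = 0.412). HHIP, a membrane protein that binds and sequesters ligand, had 22.8, 24.1 and 22.7 CPM after H3F3A siRNA, against 20.9 and 22.9 CPM after scrambled siRNA. The groups overlapped, and the log2 fold change was 0.08 (SE 0.09, 95% interval -0.10 to 0.27, edgeR adjusted p = 0.691). It was 0.02 without scrambled replicate 1 and 0.15 without scrambled replicate 3. As percentages of the scrambled level, the intervals reached from -7.79% to 24.5% for PTCH1, from -10.8% to 17.1% for GLI1 and from -6.85% to 20.4% for HHIP.

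SMO, the signal transducer at the head of the intracellular pathway, had 96.7, 114 and 114 CPM in the H3F3A siRNA libraries, against 138 and 122 CPM in the scrambled libraries. Every H3F3A siRNA library lay below both scrambled ones. The log2 fold change was -0.27 (SE 0.08, 95% interval -0.44 to -0.09), and it missed the threshold (edgeR adjusted p = 0.086). Without scrambled replicate 3 it was called (-0.35, adjusted p = 0.00742), and without scrambled replicate 1 it was not (-0.18, adjusted p = 0.495). With a GC offset, described below, the log2 fold change was -0.13 (adjusted p = 0.395). It was also called without a low-count filter (adjusted p = 0.0399).

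Among the GLI factors, GLI3, the main source of the pathway's repressor form, had the largest log2 fold change of the 3 but was not called. It had 43.5, 49.2 and 49.7 CPM after H3F3A siRNA, against 37.5 and 42.3 CPM after scrambled siRNA. The groups did not overlap, though the lowest H3F3A siRNA library lay close to the higher scrambled one. The log2 fold change of GLI3 was 0.25 (SE 0.09, 95% interval 0.07 to 0.43, edgeR adjusted p = 0.118), and 0.25 with a GC offset (adjusted p = 0.105). Without scrambled replicate 3 it was called (0.34, adjusted p = 0.011), and without scrambled replicate 1 it stood at 0.16 (adjusted p = 0.583). GLI2, the main activator, had 49.0, 56.3 and 53.4 CPM after H3F3A siRNA, against 61.0 and 54.7 CPM after scrambled siRNA. The groups overlapped, and the log2 fold change was -0.13 (SE 0.08, edgeR adjusted p = 0.462). It was -0.05 without scrambled replicate 1 and -0.21 without scrambled replicate 3, and changed sign with a GC offset, to 0.04.

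Of the summed GLI1, GLI2 and GLI3 levels per kilobase, GLI3 made up 26.0% ± 0.906 after H3F3A siRNA (SD, n = 3) and 22.2% ± 3.36 after scrambled siRNA (SD, n = 2). The share of GLI2 was 39.0% ± 1.05 after H3F3A siRNA and 43.2% ± 0.426 after scrambled siRNA, and that of GLI1 was 35.1% ± 1.65 after H3F3A siRNA and 34.6% ± 2.93 after scrambled siRNA. RNA levels do not show how much GLI2 or GLI3 protein was full length or cut.

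SUFU, the cytoplasmic inhibitor that holds GLI proteins, had the log2 fold change nearest to 0 of the 9 members without a GC offset. It had 55.2, 57.2 and 56.5 CPM after H3F3A siRNA, against 56.6 and 54.8 CPM after scrambled siRNA. The groups overlapped, and the log2 fold change was 0.02 (SE 0.08, 95% interval -0.14 to 0.17, edgeR adjusted p = 0.944). With a GC offset it was 0.10 (adjusted p = 0.533). That was farther from 0 than HHIP (-0.02), CDON (-0.03), GLI2 (0.04) and PTCH1 (0.08) with the same offset.

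BOC, an immunoglobulin and fibronectin repeat protein that binds ligand and also acts in muscle cell differentiation, was the only member called. It had 10.5, 11.2 and 10.8 CPM in the H3F3A siRNA libraries, against 13.4 and 14.7 CPM in the scrambled libraries. The raw counts behind them were 312, 326 and 333 after H3F3A siRNA, against 392 and 435 after scrambled siRNA. All H3F3A siRNA libraries lay below both scrambled ones. BOC averaged 10.8 ± 0.393 CPM after H3F3A siRNA (SD, n = 3) and 14.0 ± 0.855 CPM after scrambled siRNA (SD, n = 2), 1.30-fold lower (log2 fold change -0.38, SE 0.10, 95% interval -0.59 to -0.16, edgeR adjusted p = 0.045). That p lies just under the threshold. The log2 fold change stayed between -0.44 and -0.30 in all 16 alternatives, but the call was kept in 5 and lost in 11.

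Leaving out any single library ended the call of BOC. The adjusted p was 0.22, 0.117 and 0.122 without H3F3A siRNA replicates 1, 2 and 3, and 0.0903 and 0.0743 without scrambled replicates 1 and 3. It was 0.132 with a GC offset (log2 fold change -0.30), 0.0804 by DESeq2 and 0.0664 with the stranded columns added up. BOC overlaps CFAP44, a gene of cilia and flagella on the other strand. Of the reads in the stranded columns of BOC added up, 4.40% to 8.17% were ambiguous and not counted. Such reads can come from either gene. CFAP44 had 6.70, 7.58 and 7.15 CPM after H3F3A siRNA, against 6.51 and 6.06 CPM after scrambled siRNA, and was not called (log2 fold change 0.18, edgeR adjusted p = 0.489).

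CDON, the close relative of BOC that also binds ligand and promotes myogenic differentiation, was not called. It had 91.1, 102 and 98.4 CPM after H3F3A siRNA, against 89.1 and 101 CPM after scrambled siRNA, and the groups overlapped. The log2 fold change was 0.03 (SE 0.08, 95% interval -0.14 to 0.19, edgeR adjusted p = 0.903). GAS1, a co-receptor anchored to the membrane by a lipid, was not called either. It had 456, 651 and 649 CPM after H3F3A siRNA, against 635 and 710 CPM after scrambled siRNA (log2 fold change -0.20, edgeR adjusted p = 0.466). H3F3A siRNA replicate 1 was the lowest library, and without it the log2 fold change of GAS1 was -0.05 (adjusted p = 0.848).

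Ratios of raw counts within a library do not depend on library scaling. The 3 pairs below were chosen after the values were seen and are described without a test. SMO over PTCH1 was 3.76, 3.31 and 3.40 in the H3F3A siRNA libraries, against 4.63 and 4.31 in the scrambled libraries. GLI3 over GLI2 was 0.888, 0.874 and 0.931 after H3F3A siRNA, against 0.615 and 0.772 after scrambled siRNA. BOC over CDON was 0.115, 0.11 and 0.11 after H3F3A siRNA, against 0.151 and 0.145 after scrambled siRNA. For each ratio the H3F3A siRNA libraries lay wholly apart from the scrambled ones. Each pair holds 1 of the 3 members whose groups did not overlap, SMO, GLI3 and BOC, so this separation partly follows from the choice. How often ratios of other gene pairs lie apart was not examined. In each pair the gene with the higher GC content was on the lower side after H3F3A siRNA: 60.4% for SMO and 50.1% for PTCH1, 62.0% for GLI2 and 51.4% for GLI3, and 56.8% for BOC and 46.3% for CDON.

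**Figure D3:**
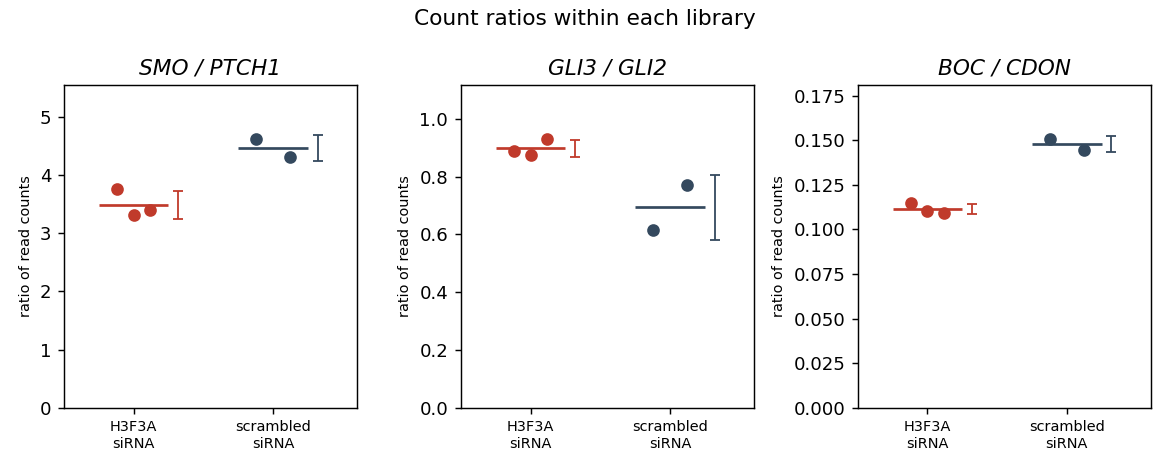
Ratios of raw read counts within each library (vertical axes, from 0) for SMO over PTCH1, GLI3 over GLI2 and BOC over CDON. Points are libraries, lines are group means and bars are 1 SD. The H3F3A siRNA libraries lie below the scrambled ones for SMO over PTCH1 and BOC over CDON, and above them for GLI3 over GLI2.

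Fold changes moved with the GC content of transcripts over the whole data set. Across 10 classes of equal size by GC content, the median log2 fold change ran from 0.11 in the class with the lowest GC content to -0.23 in the class with the highest, and the share of genes called lower ran from 0.216% to 14.5%. In H3F3A siRNA replicates 1, 2 and 3 log2 CPM, each gene taken relative to its mean over the 5 libraries, sloped by -0.06, -0.04 and -0.04 per 10 percentage points of GC. The slope was 0.155 in scrambled replicate 1 and -0.007 in scrambled replicate 3. The class that holds BOC, SUFU and GLI1 had a median of -0.09 with 3.74% called lower, and that of SMO a median of -0.14 with 6.12% called lower. BOC lay 0.28 below the median of its class and SMO 0.12 below. GLI3 lay 0.25 above that of its class. GLI1 lay 0.13 above, SUFU 0.11, and GLI2 and PTCH1 0.10, while HHIP and CDON lay 0.03 below. The part of the GC trend in the members' values was not tested beyond the GC offset, which removes a smooth trend from each library.

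**Figure D4:**
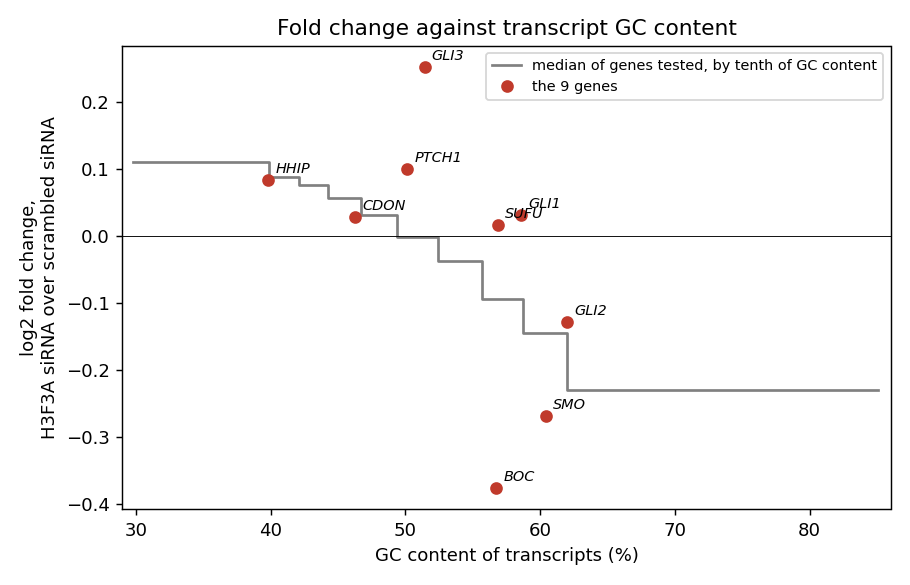
Log2 fold change, H3F3A siRNA over scrambled siRNA (vertical axis), against the mean GC content of a gene's transcripts in percent (horizontal axis). The grey steps are medians of all tested genes in 10 classes of GC content, from 0.11 to -0.23, and red points are the 9 genes. GLI3, GLI1, SUFU, GLI2 and PTCH1 lie above the steps, and BOC, SMO, HHIP and CDON lie below them.

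Other genes of the pathway were followed in 6 lists of 114 different genes, of which 99 passed the low-count filter. After H3F3A siRNA 5 of the 99 were called, all lower, or 5.05% against 3.2% of all genes tested, and 94 were not called. Their median log2 fold change was -0.02. An unadjusted edgeR p under 0.05 was found for 25.3% of them, against 16.8% of all genes tested. By list this share was 0% for other reception genes, 14.3% for ligands and 21.7% for GLI processing. It was 26.9% for SMO signalling and the cilium, 30% for reported targets and 33.3% for other GLI-like factors. The lists were drawn up with earlier results on these libraries known.

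Of 10 genes for ligands and their release, 7 were tested and none was called, with 1 under an unadjusted p of 0.05. SHH, the ligand that gives the pathway its best known role, had 11 reads in all 5 libraries together and was not tested. IHH stood at 0.771, 1.59 and 1.2 CPM after H3F3A siRNA, against 1.06 and 1.25 CPM after scrambled siRNA, and DHH at 0.704, 0.586 and 0.388 CPM after H3F3A siRNA, against 0.514 and 0.438 CPM after scrambled siRNA. Neither of these ligand genes was called. DISP2, a relative of the ligand exporter DISP1, had 1.51, 1.62 and 1.39 CPM after H3F3A siRNA, against 2.5 and 2.36 CPM after scrambled siRNA (log2 fold change -0.69, edgeR adjusted p = 0.0666). It was called in 1 of 16 alternatives. DISP1 (log2 fold change 0.11) and SCUBE1, a secreted protein that takes part in ligand release (log2 fold change 0.13), had the most reads of this list.

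None of the 5 tested genes of the list of other reception genes was called, and none had an unadjusted p under 0.05. GPC3 and GPC4, cell surface heparan sulfate proteoglycans, had log2 fold changes of 0.23 and -0.06.

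In the list of SMO signalling and the primary cilium, 1 of 26 tested genes was called, lower, and the median log2 fold change was -0.01. It was INPP5E, the phosphatase that sets the lipid composition of the ciliary membrane, with 81.5, 94.0 and 77.5 CPM after H3F3A siRNA, against 135 and 106 CPM after scrambled siRNA. All H3F3A siRNA libraries were lower than both scrambled ones (log2 fold change -0.52, edgeR adjusted p = 0.00566). With a GC offset the log2 fold change of INPP5E was -0.34 (adjusted p = 0.0163), and it was no longer called when H3F3A siRNA replicate 1 (adjusted p = 0.135) or scrambled replicate 1 (adjusted p = 0.113) was left out. KIF7, the ciliary kinesin that regulates GLI proteins, was not called (log2 fold change -0.21, adjusted p = 0.211). Nor was KIFAP3, a subunit of the kinesin that carries cargo into the cilium (0.24, adjusted p = 0.169), or the SMO kinase GRK2 (-0.19, adjusted p = 0.232). Without scrambled replicate 3, KIF7 (-0.34, adjusted p = 0.00848) and GRK2 (-0.32, adjusted p = 0.00306) were called. Without scrambled replicate 1 they stood at -0.08 (adjusted p = 0.837) and -0.05 (adjusted p = 0.886), and with a GC offset both stood at -0.02. ARRB1, a beta-arrestin and the gene with the most reads of this list, had a log2 fold change of -0.15.

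Of 23 tested genes for GLI processing and degradation none was called. An unadjusted p under 0.05 was found for 5 of them, or 21.7%, against 16.8% of all genes tested, and 17 lay above 0, or 73.9% against 51.4%. Their median log2 fold change was 0.09, and 0.03 with a GC offset, and their median GC content was 45.2% against 49.4% over all genes tested. The ubiquitin ligase ITCH, BTRC, the F-box protein that marks GLI proteins for processing, and SPOPL, a relative of the GLI-degrading adaptor SPOP, had log2 fold changes of 0.19, 0.18 and 0.22 (edgeR adjusted p = 0.221, 0.236 and 0.248). They were called without scrambled replicate 3, at 0.29, 0.25 and 0.37 (adjusted p = 0.0089, 0.0359 and 0.0179). Without scrambled replicate 1 they stood at 0.09, 0.12 and 0.09 (adjusted p = 0.775, 0.71 and 0.855), and with a GC offset at 0.09, 0.12 and 0.10. CSNK1D, a casein kinase, and HDAC1, a deacetylase that acts on GLI proteins, had log2 fold changes of -0.10 and 0.04.

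Of 30 tested genes reported elsewhere as Hedgehog targets 2 were called, both lower, or 6.67% against 3.2% of all genes tested. Of the 30, 21 lay below 0, or 70% against 48.6% of all genes tested. The median log2 fold change was -0.14, or -0.10 with a GC offset, and the median GC content was 56.0% against 49.4% over all genes tested. CCND1, the G1 cyclin, had 75.2, 71.7 and 79.9 CPM after H3F3A siRNA, against 110 and 107 CPM after scrambled siRNA (log2 fold change -0.52, edgeR adjusted p = 0.000839). It was called in 15 of 16 alternatives and lost only without H3F3A siRNA replicate 1 (adjusted p = 0.0561). JAG2, a Notch ligand, had 37.8, 42.4 and 44.4 CPM after H3F3A siRNA, against 59.0 and 49.3 CPM after scrambled siRNA (log2 fold change -0.38, edgeR adjusted p = 0.021), and with a GC offset it was not called (log2 fold change -0.18, adjusted p = 0.198). Its call was also lost without H3F3A siRNA replicates 1 (adjusted p = 0.22) and 2 (adjusted p = 0.073) and scrambled replicate 1 (adjusted p = 0.272).

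FOXC2, a forkhead factor of mesoderm, had 35.8, 43.9 and 35.9 CPM after H3F3A siRNA, against 50.4 and 45.3 CPM after scrambled siRNA, and missed the threshold (log2 fold change -0.31, edgeR adjusted p = 0.0653). It was called without H3F3A siRNA replicate 2 (adjusted p = 0.0401) and without scrambled replicate 3 (adjusted p = 0.0168), and also without a low-count filter (adjusted p = 0.0198) and with the stranded columns added up (adjusted p = 0.0433). Without scrambled replicate 1 it stood at -0.24 (adjusted p = 0.452), and with a GC offset at -0.15 (adjusted p = 0.449). IGF2, an imprinted growth factor gene, had 275, 450 and 287 CPM after H3F3A siRNA, against 448 and 493 CPM after scrambled siRNA. H3F3A siRNA replicate 2 reached into the scrambled range (log2 fold change -0.48, edgeR adjusted p = 0.455), and without that library IGF2 was called (-0.74, adjusted p = 0.000122). It was not called without any other library or with a GC offset (-0.37, adjusted p = 0.724). CDK6, a G1 kinase and the gene with the most reads of this list, had a log2 fold change of -0.03. It ran from -0.19 to 0.11 over the 16 alternatives, and CDK6 was called in 1 of them.

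Of 9 other GLI-like zinc finger factors 2 were called, both lower, or 22.2% against 3.2% of all genes tested. GLIS3 had 10.9, 12.3 and 12.4 CPM after H3F3A siRNA, against 15 and 17.2 CPM after scrambled siRNA (log2 fold change -0.44, edgeR adjusted p = 0.0224), and with a GC offset it was called as well (-0.46, adjusted p = 0.0157). GLI4 had 6.57, 7.79 and 6.05 CPM after H3F3A siRNA, against 11.0 and 8.42 CPM after scrambled siRNA (log2 fold change -0.52, edgeR adjusted p = 0.0377), and with a GC offset it was not called (-0.27, adjusted p = 0.295). The call of GLIS3 was lost without H3F3A siRNA replicates 1 (adjusted p = 0.194) and 2 (adjusted p = 0.0682) and scrambled replicate 3 (adjusted p = 0.0543). That of GLI4 was lost without H3F3A siRNA replicates 1 (adjusted p = 0.238) and 3 (adjusted p = 0.0966) and scrambled replicate 1 (adjusted p = 0.514). GLI4 was also not called by DESeq2 (adjusted p = 0.0651) or in a non-robust fit (adjusted p = 0.0508), and in all kept its call in 9 of 16 alternatives. ZIC1 and ZIC2, relatives of the GLI family, had log2 fold changes of -0.11 and -0.23 and were not called.

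**Figure D5:**
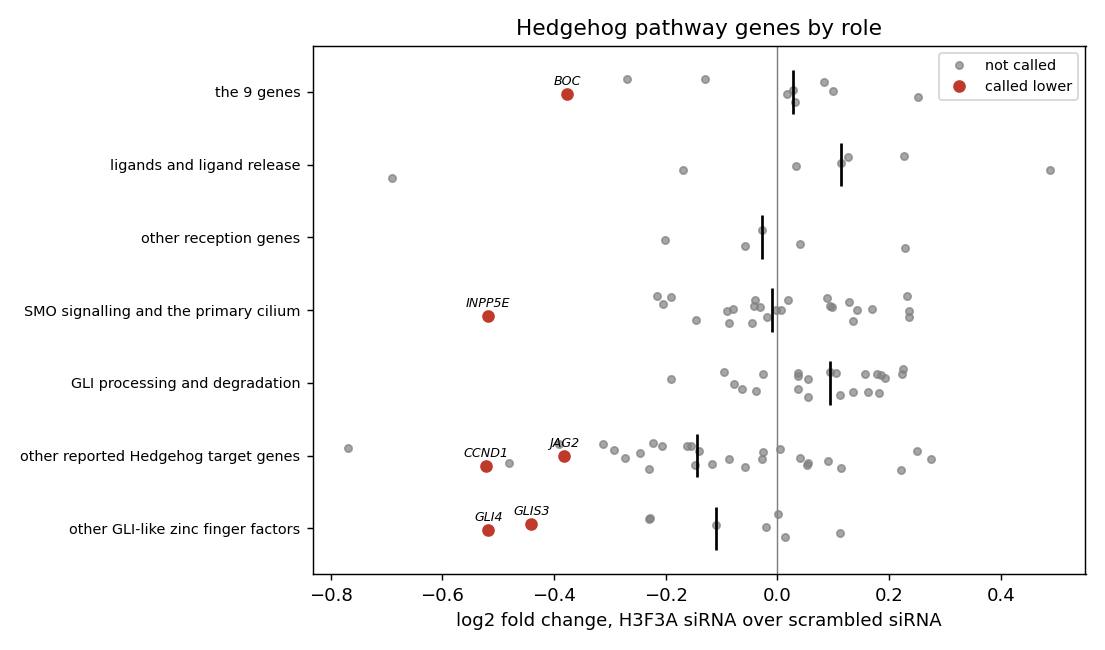
Log2 fold changes, H3F3A siRNA over scrambled siRNA (horizontal axis), of the 9 genes and of the tested genes of the 6 pathway lists. Each point is a gene, red points were called lower at an adjusted p under 0.05 and black bars are medians. No gene was called higher, and the called genes are BOC, INPP5E, CCND1, JAG2, GLIS3 and GLI4.

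The nearest tested genes on either side of the members, with 1 that overlaps a member, made up 19 neighbours by RefSeq order on GRCh38.p14, of which 2 were called, both lower, or 10.5% against 3.2% of all genes tested. INHBE, an inhibin beta subunit next to GLI1, had 8.64, 7.55 and 7.15 CPM after H3F3A siRNA, against 13.3 and 12.5 CPM after scrambled siRNA (log2 fold change -0.73, edgeR adjusted p = 0.00133), while GLI1 stood at 0.03. TRIM8, a RING finger ubiquitin ligase next to SUFU, had 197, 201 and 198 CPM after H3F3A siRNA, against 271 and 223 CPM after scrambled siRNA (log2 fold change -0.32, edgeR adjusted p = 0.035), while SUFU stood at 0.02. TRIM8 was not called with a GC offset (adjusted p = 0.0596) or without scrambled replicate 1 (adjusted p = 0.394) or H3F3A siRNA replicates 1, 2 and 3 (adjusted p = 0.22, 0.125 and 0.0994). The other 17 neighbours were not called, with log2 fold changes from -0.66 to 0.52. Among them was HHIP-AS1, on the strand opposite to HHIP, at 3.45, 3.65 and 3.11 CPM after H3F3A siRNA, against 3.26 and 2.90 CPM after scrambled siRNA. INHBA, an inhibin subunit next to GLI3, had 1.64, 1.93 and 1.71 CPM after H3F3A siRNA, against 1.23 and 1.21 CPM after scrambled siRNA (log2 fold change 0.52, edgeR adjusted p = 0.248).

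Genes whose levels followed the readouts most closely were found by the root mean square difference of log2 CPM, each gene centred on its mean over the 5 libraries. Nearest to PTCH1 were RDH10 (0.0161), FAM78B (0.017) and LOC101927400 (0.0329). For GLI1 they were EXOSC7 (0.0153), LOC728392 (0.0168) and CISH (0.0193), and for HHIP they were SRBD1 (0.0102), SEC23IP (0.011) and WDR48 (0.0125). With 5 libraries and 15859 genes many patterns are close by number alone, so these are a description.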

How the data were processed

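Per the labels' protocols, poly-A RNA was fragmented, primed with random hexamers and made into libraries with a NEBNext Ultra kit. The deposited files hold raw counts of reads for each gene, as STAR writes them, in 1 unstranded and 2 stranded columns. The submitters' processing notes name STAR 2.5, HTSeq 0.6.1, CASAVA, bcl2fastq, DESeq2 and hg19, with no role for any of them. The unstranded column was used, without its 4 summary lines. The tests used edgeR 4.0.16 (R 4.3.3): filterByExpr on group (minimum count 10, minimum total 15), TMM scaling, a robust quasi-likelihood fit without covariates, and Benjamini-Hochberg adjustment over all 15859 genes tested, with an adjusted p under 0.05 called. CPM are these counts over the TMM-scaled library size. Each standard error is the log2 fold change divided by the root of its F value. GC content was found in GENCODE release 29 transcripts for 87.6% of tested genes, and the GC offset is a spline with 4 degrees of freedom per library. DESeq2 1.42.0 was an alternative. The script was tested on simulated counts with 1 dispersion for all genes. Of simulated log2 changes of 0.4 it recovered 56%, of changes of 1 it recovered 95%, and 6.21% of its calls were false. The members' log2 fold changes, from -0.38 to 0.25, were all smaller in size than 0.4. Members, lists and alternatives were chosen with earlier results of these data known. Named genes are the 9 members, H3F3A, H3-3B, the called genes of each list with its lowest p-values (3 in all) and the 2 with the most reads, the nearest neighbours, and the 3 genes most like each readout. The ligand genes SHH, IHH and DHH and some cell type markers are named in addition.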

Additional observations from a re-analysis of the deposited data

How the results depend on the processing

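Genes called over the whole table numbered 507, and 792 without a low-count filter, 15 (without H3F3A siRNA replicate 1) to 2481 (without scrambled replicate 3) with a library left out, 83 with a GC offset and scrambled replicate 1 left out, and 1195 with a GC offset and the replicate block. Members called numbered 1, and 0 with upper-quartile scaling, a GC offset, a GC offset with scrambled replicate 1 left out, a non-robust fit, DESeq2 or the stranded columns added up, 2 without a filter, 3 with a GC offset and the replicate block, and 0 to 2 with a library left out. Pathway list genes called numbered 5, and 0 to 16 with a library left out, 2 with a GC offset and scrambled replicate 1 left out, 8 with the replicate block and 17 with it and a GC offset. In the replicate block fit, over replicates 1 and 3, 573 genes were called and BOC kept its call (adjusted p = 0.0424). With a GC offset as well, SMO (-0.17, adjusted p = 0.0118) and GLI3 (0.22, adjusted p = 0.00729) were called beside BOC. With the block, without and with a GC offset, GAS1 (adjusted p = 0.0461 and 0.00033), FOXC2 (0.00646 and 0.00411) and IGF2 (9.6e-11 and 4.9e-11) were also called. The labels do not say whether equal replicate numbers mark shared cultures, so the numbers were not taken to pair the libraries. Across 9717 genes, deviations from the group mean correlated with r = 0.212 for number 1 and 0.075 for number 3. For H3F3A siRNA replicate 2 and scrambled replicate 3, which differ in number, r was 0.191. The deviations of 2 scrambled libraries mirror each other, so these values cannot show or exclude pairing. Log2 fold changes near 0 changed sign in some settings: GLI2 0.036, HHIP -0.024, CDON -0.032 and CSNK1D 0.010 with a GC offset; HHIP -0.026 and CDON -0.099 with that offset and scrambled replicate 1 left out; PTCH1 -0.00024, HHIP -0.049, CDON -0.062, GRK2 0.0019 and CSNK1D 0.014 with that offset and the replicate block; and CDON -0.0051 with the replicate block. With a library left out, CDON ran from -0.066 to 0.12, GLI1 from -0.12 to 0.19, SUFU from -0.0076 to 0.037, GPC4 from -0.13 to 0.015, CDK6 from -0.15 to 0.11 and H3-3B from -0.036 to 0.026. H3-3B stood at 0.019 with upper-quartile scaling, 0.0031 without a filter, 0.0010 with the stricter filter, 0.022 with the replicate block with or without a GC offset, 0.026 with that offset and scrambled replicate 1 left out, and 0.0089 with the stranded columns added up. Apart from the GC offsets, whose construction removes the GC trend, the cause of these changes was not tested. With 2 scrambled libraries, each of them carries much of every estimate.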
